A study of Mus musculus with 87 samples.

Results

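The genes described here, which mark Kupffer cells and other macrophages, were followed through the response of the mouse liver to partial hepatectomy (PH), the surgical removal of most of the liver. They are the 10 rows named Clec4f, Cd5l, Marco, Vsig4, Csf1r, Cd68, Timd4, Emr1, Cd163 and C1qa, out of the 37991 genes of the expression table, and they were taken by name with earlier results of these data known. Kupffer cells are the resident macrophages of the liver. They line the sinusoids, the capillaries of the liver, where they take up bacteria, damaged red cells and debris from portal blood, and they depend on the growth factor receptor encoded by Csf1r. During regeneration, macrophages are known as a source of cytokines that act on hepatocytes, and monocytes from the blood can enter the tissue and take on macrophage features.

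Poly(A) RNA of individual livers of C57BL/6 male mice was sequenced, and 80 libraries in 19 groups were analysed here. The mice are listed as 12 to 14 weeks old, by the study's methods at the time of surgery. Livers taken 1 or 4 weeks after surgery thus came from mice that much older. All mice were kept on a light and dark cycle with food given only in the dark, and surgery was performed under isoflurane at ZT2, early in the light period (ZT0 is lights on). The unoperated groups were C0 (the resting liver at ZT2, 9 livers), C4 (the clock time reached 4 h later, 3 livers) and C4W (4 weeks, 2 livers). The post-PH groups (X) were X1 (1 h, 6 livers), X4 (4 h, 3 livers), X10 (10 h, 6 livers), X20 (20 h, 6 livers), X28 (28 h, 3 livers), X36 (36 h, 6 livers), X44 (44 h, 3 livers), X48 (48 h, 5 livers), X72 (72 h, 3 livers), X1W (1 week, 3 livers) and X4W (4 weeks, 2 livers), and livers labelled X60 (60 h) are not analysed here. The sham groups (S), in which the abdomen was opened and no liver was removed, were S1 (1 h, 6 livers), S4 (4 h, 5 livers), S10 (10 h, 3 livers), S20 (20 h, 3 livers) and S48 (48 h, 3 livers). By the study's methods the work was done in 3 periods: S48, X28, X44, X48, X72 and X1W came from the first, S10, S20, C4W and X4W from the second and C4 from the third, while S1, S4, X1, X4, X10, X20 and X36 were split over the first and second, and C0 over all 3. Of X4 only the 3 livers numbered 4 to 6 are analysed here, and whether they came from 1 of these periods or both is not known. Whole liver was sequenced, so hepatocyte RNA made up most of each library, and fewer cells of a type and less RNA per cell cannot be told apart.

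Levels are given as log2 RPKM (read counts scaled by the length of the transcript and by the mapped reads of the library), and changes between groups as log2 fold changes of RPKM + 0.25 with their standard errors (SE). A gene was called higher or lower at an adjusted p below 0.05 (limma, Benjamini-Hochberg adjustment over the 15396 genes tested) and a log2 fold change beyond 0.5. Estimated depth was between 12.2 and 48.8 M reads per library (M, megareads), with a median of 26.7 M reads. All 10 genes passed the detection threshold of −1.5 log2 RPKM, 776 of their 800 values were above it, and none was listed at 0 reads. The lowest value stood for an estimated 3 reads and the median value for 136 reads, so Timd4, which was above the threshold in 66 of 80 libraries, carries the most counting error.

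Per unit of transcript length, C1qa, Clec4f and Cd5l were the most abundant of the genes in resting liver. In C0 without replicate 8, a library described below, C1qa, a chain of the complement initiator C1q that macrophages secrete, was at 2.97 ± 0.69 log2 RPKM (SD, n = 8) and Clec4f, a C-type lectin largely restricted to Kupffer cells among mouse cells, at 2.60 ± 0.73. Cd5l, a secreted scavenger protein also called AIM, was at 2.33 ± 0.75. Vsig4, a complement receptor of tissue macrophages, was at 1.23 ± 0.72, Cd68, a glycoprotein of macrophage lysosomes, at 0.64 ± 0.67 and Csf1r at 0.61 ± 0.50. Emr1, which encodes the macrophage antigen F4/80, was at −0.43 ± 0.54, and Marco, a scavenger receptor that binds bacteria, was at −0.61 ± 0.68. The hemoglobin-haptoglobin receptor gene Cd163 was at −1.04 ± 0.60 and Timd4, a receptor for the phosphatidylserine of dying cells, at −1.09 ± 0.82. The label of the genes thus held in these livers in so far as Clec4f, Timd4 and Vsig4, which define resident Kupffer cells, were all detected.

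The sequences before the start sites were compared because Marco changed apart from most of the other genes, as described below. Of the 10 genes, 7 had an entry in the RefSeq promoter table (assembly GRCm38.p6), from which the 250 bases before the start site were read. They were searched on both strands for GAGGAA, a core bound by PU.1 (the macrophage factor encoded by Spi1), for TGANTCA, the AP-1 site, and for TGCTGAC, a core of MAF sites. The PU.1 core was found in 4 of the 7 (Cd5l, Marco, Vsig4 and Cd68) and in 23.1% of 27025 promoters of the same length. The AP-1 site was found in 1, Cd68, against 6.87% of all promoters, and the MAF core in 1, Timd4, against 3.72%. No matches overlapped each other, and a match describes letters only. The upstream bases of Marco, of Vsig4 as a gene that did not follow Marco, and of Clec4f as the Kupffer cell reference used below are given 5′ to 3′ on the gene's strand, with the PU.1 core in capitals. They lie at chr1:120505025-120505274, chrX:96293439-96293688 and chr6:83656117-83656366 of GRCm38.p6, all on the minus strand.
Marco: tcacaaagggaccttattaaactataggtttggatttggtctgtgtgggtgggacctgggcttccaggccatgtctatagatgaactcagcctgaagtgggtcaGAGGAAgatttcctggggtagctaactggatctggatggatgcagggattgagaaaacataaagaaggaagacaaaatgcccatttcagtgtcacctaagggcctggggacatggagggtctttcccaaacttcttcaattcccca
Vsig4: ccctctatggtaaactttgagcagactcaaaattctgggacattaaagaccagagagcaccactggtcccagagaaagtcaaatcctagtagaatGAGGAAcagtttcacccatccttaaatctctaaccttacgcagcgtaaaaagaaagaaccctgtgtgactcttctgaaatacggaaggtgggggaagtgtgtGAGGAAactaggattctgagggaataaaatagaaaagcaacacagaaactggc
Clec4f: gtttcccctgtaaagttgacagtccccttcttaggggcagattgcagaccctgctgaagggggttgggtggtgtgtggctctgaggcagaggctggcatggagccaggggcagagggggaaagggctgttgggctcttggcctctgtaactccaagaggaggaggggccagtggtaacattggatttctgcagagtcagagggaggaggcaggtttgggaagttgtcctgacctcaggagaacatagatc
Counted from the start site, the core stands at −146 to −141 in Marco and at −155 to −150 and −53 to −48 in Vsig4, and the window of Clec4f holds none.

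On the mouse assembly mm9 all 10 rows are protein-coding genes. Clec4f lies at chr6:83594536-83606181 on the minus strand and Cd163 at chr6:124254669-124280545 on the plus strand. Marco is at chr1:122371115-122401661 (minus), Cd5l at chr3:87161803-87174996 (plus), C1qa at chr4:136451832-136454718 (minus) and Vsig4 at chrX:93442542-93488777 (minus). Cd68 at chr11:69477715-69479655 (minus) and Timd4 at chr11:46624302-46657834 (plus) share a chromosome, Emr1 is at chr17:57498109-57622952 (plus) and Csf1r at chr18:61265226-61291803 (plus). Values count the reads over all exons of a gene.

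The 9 resting livers differed widely in these genes, and replicate 8 stood apart. In that liver Clec4f was at 5.66 log2 RPKM, Cd5l at 5.50, C1qa at 5.83, Vsig4 at 4.54 and Marco at 2.43. The other 8 livers were between 1.5 and 3.41 for Clec4f, between 1.15 and 3.20 for Cd5l, between 2.02 and 3.89 for C1qa, between 0.15 and 1.98 for Vsig4 and between −1.88 and 0.01 for Marco. All 10 genes were higher in replicate 8 than in any other C0 liver, by 1.83 (Cd163) to 3.17 (Vsig4) above the mean of the others on the scale of log2(RPKM + 0.25), while the median difference over all 15396 genes was 0.015. The share of all genes that were highest in replicate 8 was not counted. The SD of Clec4f over the C0 livers, 1.23 with all 9, was 0.73 without replicate 8, and that of Marco fell from 1.20 to 0.68.

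**Figure D1:**
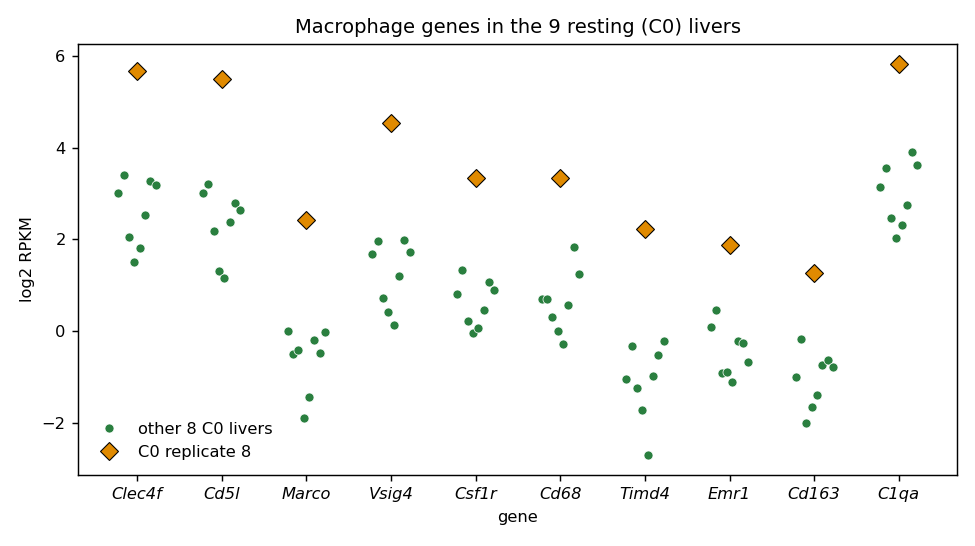
Level of each of the 10 genes (log2 RPKM, y axis) in the 9 C0 livers, with 1 point per liver. The diamond is replicate 8, which is above the other 8 livers in all 10 genes, for example at 5.66 for Clec4f against at most 3.41.

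The other immune lists moved with replicate 8. Of 29 further Kupffer cell and tissue macrophage genes, 26 were above all other C0 livers there, as were 10 of 10 neutrophil, 12 of 13 monocyte, 6 of 6 B cell, 5 of 5 dendritic cell and 9 of 10 sinusoidal endothelial genes. The summed RPKM of the 10 detected neutrophil genes was 52.9 in replicate 8, the highest of the C0 livers, with a median of 1.30. Only 1 of 10 hepatocyte, 1 of 10 stellate cell and 1 of 6 cholangiocyte genes stood above the other livers, and over all genes 680 were more than 1 log2 unit higher and 160 more than 1 lower than the mean of the others. The part of these other cell types in the macrophage values of replicate 8 was not tested.

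The numbering of the C0 livers carried a second difference. The C0 livers numbered 7 to 9 were higher than those numbered 4 to 6 in 7 of the 10 genes (6.35% of all genes were called higher) and higher than those numbered 1 to 3 in 4 of 10 (C1qa, Cd68, Timd4 and Vsig4, against 7.42%), while 4 to 6 against 1 to 3 gave 0 calls (4.51% in either direction; 2745 genes at an unadjusted p below 0.05). Without replicate 8, 2 of 10 were called between livers 7 and 9 and livers 4 to 6, against 3.36% of all genes, and 0 against livers 1 to 3. For Cd68 the livers numbered 1 to 3 were at 0.69, 0.70 and 0.32 log2 RPKM, those numbered 4 to 6 at 0.00, −0.27 and 0.58, and those numbered 7 to 9 at 1.83, 3.33 and 1.25. Each period gave 3 C0 livers, but which replicate numbers belong to which period is not given in the sources used here. Comparisons of the 10 genes with C0 are therefore given with all 9 livers and without replicate 8. Those of the other gene lists were made with all 9 livers only.

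Marco was the gene that changed most. In C0 its lowest, median and highest values were −1.88, −0.40 and 2.43 log2 RPKM, and in X1 they were −0.51, −0.10 and 0.49. The X4 livers were at 0.63, −0.09 and 0.90, and the 6 X10 livers had −0.26 as the lowest, 2.06 as the median and 2.68 as the highest value. In X20 the 6 livers ran from 2.07 to 4.87 with a median of 2.84. Thus the X20 livers were all above the 8 C0 livers other than replicate 8, and only the lowest X20 liver was below that one.

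At the later times the Marco level stayed high. The X28 livers were at 2.94, 3.39 and 4.37 log2 RPKM, the X44 livers at 3.45, 3.25 and 2.35, and the X48 livers at 2.51, 3.01, 2.30, 2.52 and 3.96. The X36 livers ran from 0.63 to 4.14 with a median of 3.24, and replicate 5, the lowest of them, was also the lowest in all 10 genes. At 72 h the livers were at 4.75, 3.79 and 3.07 and at 1 week at 3.98, 2.94 and 4.02, while the X4W livers were at 0.54 and 0.46. X28, X72 and X1W did not overlap with any C0 liver.

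Against C0, Marco was higher by 1.69 ± 0.43 at 10 h (log2 fold change ± SE, limma adjusted p = 0.00044), 2.95 ± 0.43 at 20 h (adjusted p = 2.9e-08) and 3.42 ± 0.54 at 28 h (adjusted p = 3.9e-07). It was higher by 2.64 at 36 h, 2.89 at 44 h, 2.73 at 48 h, 3.72 at 72 h and 3.50 at 1 week, all called, and by 0.56 ± 0.63 at 4 weeks, not called (adjusted p = 0.66). The calls from 20 h to 1 week were kept under every alternative run, and that at 10 h under all but the use of C0 livers 7 to 9 alone (0.95). Within the numbering of the livers, the change at 20 h was 2.44 for replicates 1 to 3 against C0 1 to 3 and 4.19 for replicates 4 to 6 against C0 4 to 6, and at 48 h the values were 2.57 and 3.77.

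Marco was also high after sham surgery. The S20 livers were at 0.78, 1.90 and 1.98 log2 RPKM and the S48 livers at 1.27, 1.70 and 3.41, against a C0 median of −0.40. The change against C0 was 1.5 ± 0.54 at 20 h (limma adjusted p = 0.032) and 2.04 ± 0.54 at 48 h (adjusted p = 0.0051). Both calls rest on 3 sham livers each. Leaving out a replicate number took that liver out of every group, C0 included. The call at 20 h was then lost without number 1, 2, 3 or 4 (1.28 to 1.87), though S20 holds no liver numbered 4. The call at 48 h was lost without number 3 (1.41). Without C0 replicate 8 the S4 and S10 groups were called as well, by 1.13 and 1.28.

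**Figure D2:**
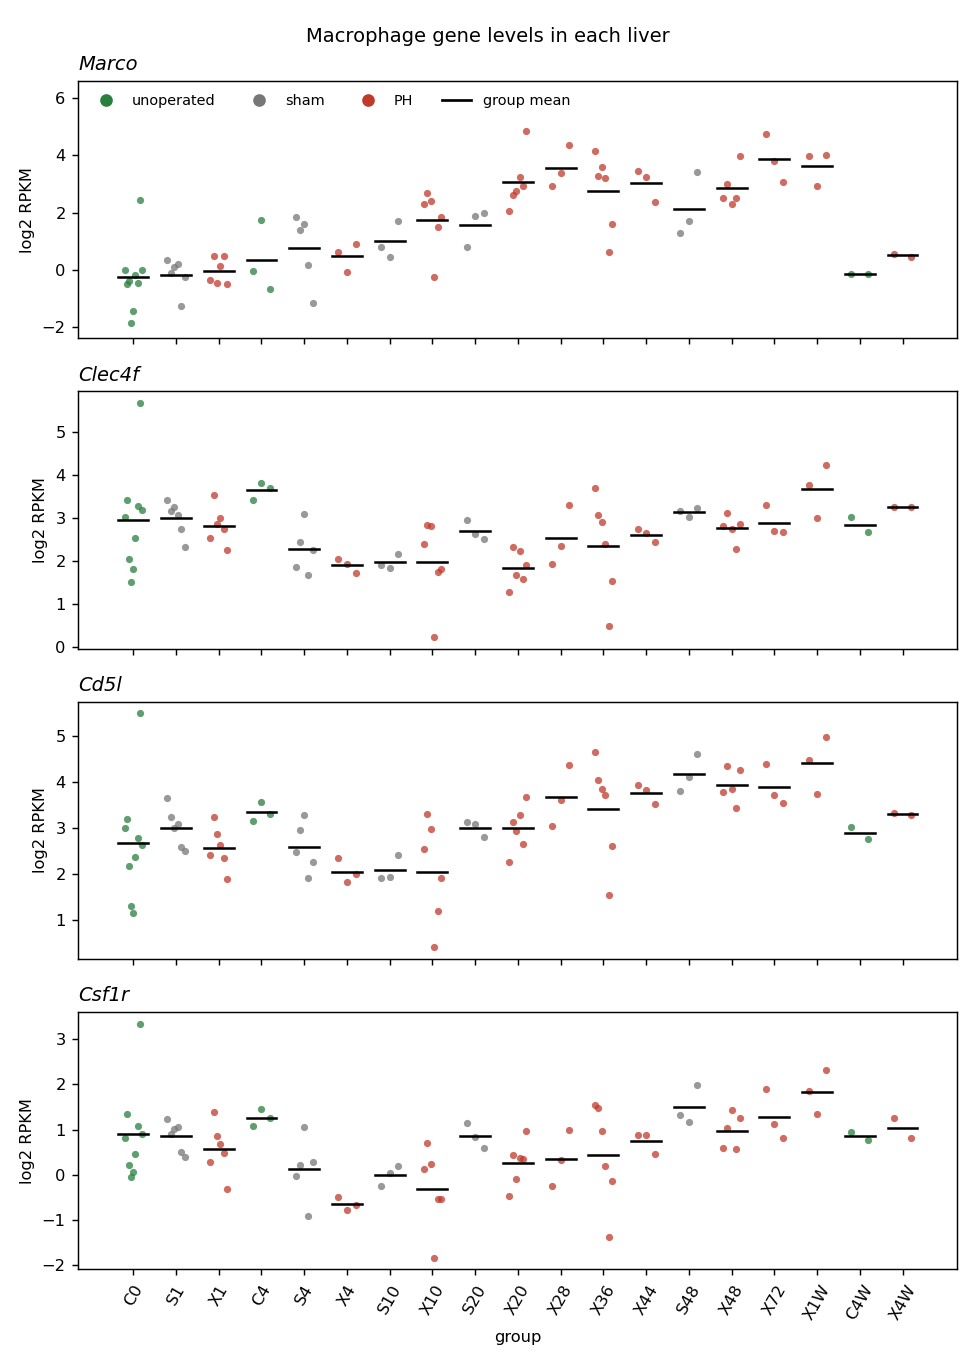
Level (log2 RPKM, y axes) of Marco, Clec4f, Cd5l and Csf1r in each liver of the 19 groups (x axis, in order of time), with 1 point per liver and a bar at the group mean. The Marco means rise from −0.27 in C0 to 3.87 in X72 and lie at 0.50 in X4W, while Clec4f means stay between 1.83 (X20) and 3.66 (X1W).

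The ratio of Marco to Clec4f was taken within each liver, so that a share of RNA common to both genes cancels. Clec4f was not a steady reference at 20 h. Its mean log2 ratio to C1qa was −0.35 in C0 and −0.95 in X20, and a lower Clec4f adds to the ratio of Marco there. In C0 the log2 ratio ran from −3.89 to −2.45 with a median of −3.23, and replicate 8, at −3.23, was inside the range of the other livers. In X20 the ratio ran from 0.29 to 2.97 (median 1.04), and in X28 from 1.01 to 1.07. The 2 X4W livers were at −2.78 and −2.70 and the 2 C4W livers at −3.16 and −2.84. In the sham groups the mean ratio was −1.5 ± 1.23 in S4 (SD, n = 5), −0.98 ± 0.49 in S10 (n = 3), −1.14 ± 0.89 in S20 (n = 3) and −1.0 ± 1.07 in S48 (n = 3), above C0 and below the means of the PH groups from 10 h to 1 week. The S20 livers, from −2.16 to −0.52, did not overlap with the X20 livers in the ratio, while the S10 livers, at −1.10, −1.4 and −0.44, overlapped with the X10 livers, which ran from −0.49 to 0.01. The S48 livers, at −1.88, −1.32 and 0.19, overlapped with the X48 livers, from −0.44 to 1.11. The X4 livers, at −1.41, −2.03 and −0.825, lay inside the S4 range of −3.43 to −0.02. These ratios are a description, with no test.

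**Figure D3:**
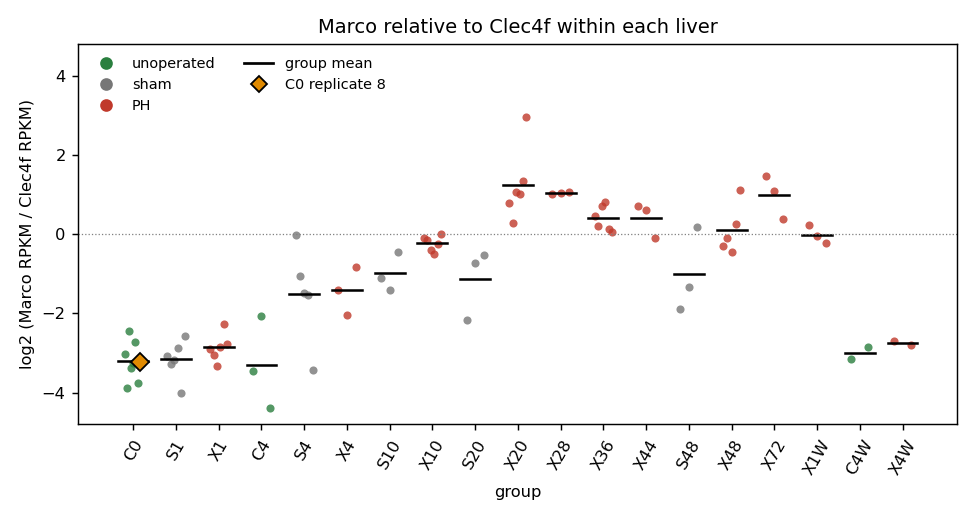
Log2 ratio of Marco RPKM to Clec4f RPKM (y axis) within each liver of the 19 groups (x axis), with a bar at the group mean and a diamond for C0 replicate 8. Replicate 8 lies at −3.23 among the other C0 livers, and the X20 and X28 livers lie between 0.29 and 2.97.

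Clec4f moved the other way from Marco at 20 h. In X20 its lowest, median and highest values were 1.28, 1.79 and 2.33 log2 RPKM, against 1.5, 3.02 and 5.66 in C0 and 2.94, 2.63 and 2.50 in the S20 livers. The X20 livers overlapped with C0 and were all below the S20 livers. Clec4f was lower than C0 by 1.06 on the log2 scale at 20 h (−1.06 ± 0.34, limma adjusted p = 0.0073), a call that remained without C0 replicate 8 (−0.73) and was lost without replicate 1 (−0.95), and with C0 livers 1 to 6 alone (−0.53). Within the numbering it was −1.01 for replicates 1 to 3 and −0.04 for replicates 4 to 6. Against S20 the difference was −0.81 ± 0.46 and not called (adjusted p = 0.25).

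Over the 10 genes, X4 and X10 held most of the lower calls against C0. At 4 h, 4 of 10 were called lower (Clec4f, Csf1r, Emr1 and Vsig4), against 26.9% of all genes, with a median log2 fold change of −0.80 over the 10 genes and −0.20 over all genes tested. At 10 h, 5 were lower (C1qa, Clec4f, Csf1r, Emr1 and Timd4, against 15.2%) and Marco alone was higher (against 21.2%), with a median of −0.70 over the 10 and 0.07 over all genes. At 20 h, Clec4f was lower (7.63%) and Marco higher (16.5%), and at 1 h none was called, against 13.5% of all genes in either direction, 6947 of which had an unadjusted p below 0.05. Without C0 replicate 8, only Csf1r was lower at 4 h (26.0% of all genes), Csf1r and Emr1 were lower at 10 h (14.7%) with Marco and Cd163 higher (21.1%), and at 20 h Marco and Cd163 were higher (16.2%). Without the livers numbered 4 in all groups, C0 included, 2 of 10 were lower at 10 h, with the share of all genes not given here. X10 replicate 4 was the lowest X10 liver in all 10 genes, and C0 replicate 4 was the lowest C0 liver in 4 of 10.

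Csf1r, the receptor for Csf1 and Il34, was lower at 4 and 10 h after PH. The X4 livers were at −0.50, −0.77 and −0.66 log2 RPKM, below every C0 liver (−0.04 to 3.33), every C4 liver (1.07, 1.44 and 1.26) and, but for S4 replicate 4 at −0.92, every S4 liver. Against C0 the log2 fold change at 4 h was −1.28 ± 0.37 (limma adjusted p = 0.0022), and −1.0 without C0 replicate 8, but it was −0.62 and not called for replicates 4 to 6 against C0 4 to 6. In X10 the lowest, median and highest values were −1.83, −0.20 and 0.70, lower than C0 by 0.99 ± 0.29 (−0.99, adjusted p = 0.0023). Within the numbering the change at 10 h was −0.38 for replicates 1 to 3, not called, and −0.82 for replicates 4 to 6, called. Of the 5 detected genes of its ligands and related receptors, Il34 was lower at 10 h (−0.70) and Csf2rb, the shared beta chain of the Il3, Il5 and GM-CSF receptors, was higher at each time analysed from 10 to 72 h, by 0.76 at 36 h to 1.4 at 10 h. Csf1 was lower at 1 h (−0.51) and higher at 20, 36, 44 and 72 h, by 0.70 at 72 h to 1.24 at 36 h, and Csf2ra was lower at 36 and 44 h (−0.54 and −0.67).

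C4 gave a comparison at 4 h with unoperated livers of the same clock time. All C4 livers came from the third period, the S4 livers from the first and second and the X4 livers from the first or second, so surgery and period cannot be told apart in it. For Vsig4 the C4 livers were at 2.10, 2.03 and 2.32 log2 RPKM, the X4 livers at 0.66, 0.10 and 0.51, and the S4 livers at 0.67, 1.15, 1.62, 0.22 and 0.71, so that both surgical groups lay below C4 without overlap. For C1qa the C4 livers were at 3.70, 4.12 and 3.90, the X4 livers at 2.60, 2.27 and 2.26, and the S4 livers at 2.48, 3.29, 3.58, 2.13 and 2.60, again without overlap. After PH, 6 of 10 were lower than in C4 (C1qa, Cd68, Clec4f, Csf1r, Timd4 and Vsig4, against 33.9% of all genes), by between 1.04 ± 0.45 for Timd4 (−1.04, limma adjusted p = 0.044) and 1.67 ± 0.53 for Clec4f (−1.67, adjusted p = 0.0057), and Marco differed by 0.08 ± 0.66. After sham surgery, 4 were lower (C1qa, Clec4f, Csf1r and Vsig4, against 31.0%), by 0.96 ± 0.40 to 1.32 ± 0.47. The median over the 10 genes was −1.17 after PH and −0.82 after sham surgery, against −0.26 and −0.22 over all genes. Leaving out 1 replicate number of all groups at a time gave 3 to 5 lower calls after PH, with Csf1r always among them. After sham surgery it gave 0 to 3, with 0 without replicates 1 or 2. The shares of all genes called in these runs are not given here. X4 and S4 share the C4 livers in these comparisons.

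Between C4 and C0, unoperated livers at clock times 4 h apart, none of the genes was called (7.89% of all genes in either direction, and 4607 genes at an unadjusted p below 0.05). All C4 livers came from the third period and the C0 livers from all periods, so clock time and period cannot be fully told apart here. Without C0 replicate 8, Clec4f was called higher in C4, by 1.0, with C4 livers at 3.40, 3.81 and 3.70 log2 RPKM. The share of all genes called without that liver is not given here.

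From 28 h onward the calls against C0 were all higher. At 28 h, Cd163 and Marco were higher (13.6% of all genes), at 36 h Marco (25.7%), at 44 h Cd5l and Marco (30.8%), at 48 h Cd163, Cd5l and Marco (30.4%), at 72 h Cd5l and Marco (26.6%), and at 1 week Cd5l, Emr1 and Marco (12.4%). Between 36 and 72 h these counts were near or below the share of all genes called higher. Over all genes the median log2 fold change was between 0.16 and 0.24 at 36 to 72 h, and scaling the libraries to the same median moved it to between −0.15 and −0.08. Under that scaling the calls of Cd5l at 44, 48 and 72 h (0.53, 0.72 and 0.78) and of Cd163 at 48 h (0.34) were lost, and those of Marco were kept. At 4 weeks none was called against C0 (5.62% in either direction, 3825 genes at an unadjusted p below 0.05) or against C4W (0.065%, with 4.06% of genes at an unadjusted p below 0.05).

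Cd5l rose later than Marco. The X44 livers were at 3.95, 3.83 and 3.53 log2 RPKM, the X48 livers at 3.80, 4.35, 3.86, 3.44 and 4.27, the X72 livers at 4.41, 3.72 and 3.54, and the X1W livers at 4.49, 3.75 and 4.99. All of them were above the 8 C0 livers other than replicate 8, whose highest value was 3.20. The S48 livers, at 3.81, 4.11 and 4.62, were in the same range. Cd5l was higher than C0 by 1.21 ± 0.38 at 48 h (limma adjusted p = 0.005), 1.67 ± 0.46 at 1 week (adjusted p = 0.0033) and 1.44 ± 0.46 at 48 h after sham surgery (adjusted p = 0.022). Without C0 replicate 8 it was also called at 28 and 36 h, by 1.30 and 1.04, and with C0 livers 7 to 9 alone none of these was called.

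Cd163 was higher than C0 at 28 h by 0.89 ± 0.34 (limma adjusted p = 0.03) and at 48 h by 0.72 ± 0.28 (adjusted p = 0.025). The X28 livers were at −0.34, 0.27 and 1.29 log2 RPKM and the X48 livers at 0.42, 0.29, 0.42, −0.24 and 0.21, against −1.99, −0.78 and 1.27 as the lowest, median and highest C0 values. The groups overlap with C0, and the call at 28 h was lost without the livers numbered 2, 3 or 4 in all groups (0.41 to 1.01). X28 itself holds no liver numbered 4. Without C0 replicate 8, Cd163 was called at 10, 20, 28, 44 and 48 h and at 1 week, by 0.64 to 1.09.

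At 1 week 6 of the 10 genes had their highest group mean. They were Clec4f (3.66), Cd5l (4.41), Vsig4 (2.55), Csf1r (1.83), Timd4 (0.36) and Emr1 (1.04 log2 RPKM). In each of them the X1W livers overlapped with those of the group with the next highest mean. The share of all genes with their highest mean at 1 week was not counted. The sinusoidal endothelial and erythroid lists also had their highest mean log2 RPKM of the 19 groups in X1W, at 2.07 against 1.69 in C0 and at 4.84 against 3.46. Of these lists 1 of 10 (Cdh5, 0.77) and 2 of 3 genes (Hbb-b1, 2.09, and Hba-a1, 1.74) were called higher than C0, against 12.4% of all genes. Their summed RPKM was 39.3 to 51.5 against 20.3 to 60.6 in C0, and 84.8 to 93.6 against 32.8 to 98.5. The part of these lists in the macrophage values was not tested. The Emr1 livers of X1W were at 1.28, 0.37 and 1.47, with a change of 0.99 ± 0.34 against C0 (limma adjusted p = 0.021). Replicate 2 was the lowest and replicate 3 the highest X1W liver in all 10 genes. Without C0 replicate 8, 8 of 10 genes were higher than C0 at 1 week, against 12.4% of all genes, with Clec4f at 1.03, Csf1r at 1.10, Timd4 at 1.06 and Vsig4 at 1.22. C1qa (0.74) and Cd68 (0.63) were the 2 not called. At 48 h without that liver, 5 of 10 were higher after PH (Marco, Cd5l, Cd163, Cd68 and Emr1, against 30.4% of all genes) and 5 of 10 after sham surgery (Marco, Cd5l, Cd163, Emr1 and Vsig4, against 3.68%).

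**Figure D4:**
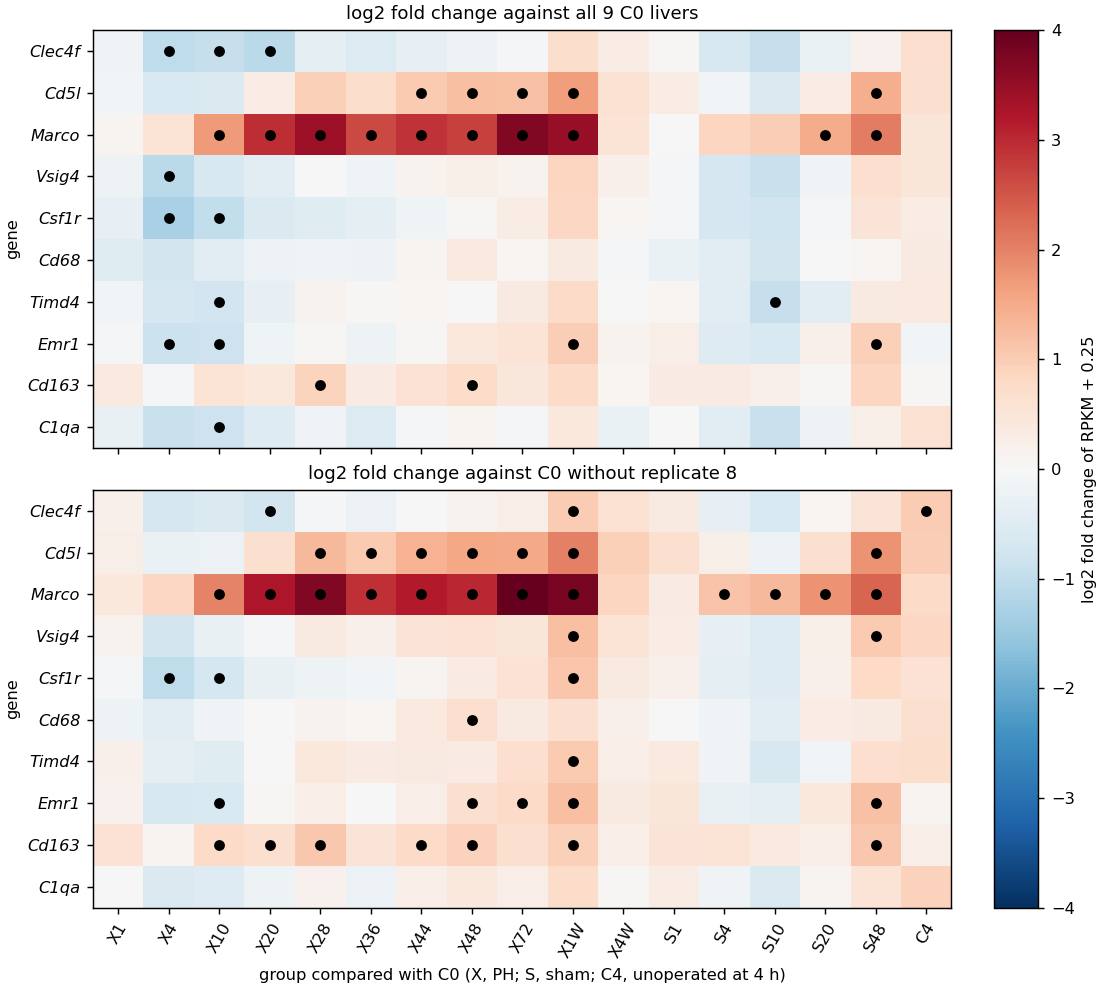
Log2 fold changes of RPKM + 0.25 (colour, red higher and blue lower) of the 10 genes (rows) in each PH and sham group and in C4 against C0 (columns), with all 9 C0 livers above and without replicate 8 below. A dot marks a call, and Marco carries dots from X10 to X1W in both, while the lower calls at X4 and X10 go from 9 to 3 without replicate 8.

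After sham surgery, none of the genes was called against C0 at the first times. At 1 and 4 h the count was 0 of 10 (7.77% and 34.4% of all genes in either direction, with 5714 and 9587 genes at an unadjusted p below 0.05). At 10 h Timd4 was lower (11.2%), at 20 h Marco was higher (7.85%) and at 48 h Cd5l, Emr1 and Marco were higher (3.83%). The Timd4 values of S10 were −2.06, −2.26 and −2.05 log2 RPKM and those of C0 ran from −2.70 to 2.23 with a median of −0.98, a difference of −0.94 ± 0.37 (limma adjusted p = 0.031) that was −0.63 and not called without C0 replicate 8. Leaving out the livers numbered 3 in all groups, C0 included, ended all 3 calls at 48 h (Marco 1.41, Cd5l 1.17 and Emr1 0.41). S48 replicate 3, the highest S48 liver in 9 of the 10 genes, was among the livers left out. The Cd5l call was also lost without the livers numbered 1 or 2 (1.66 and 1.54).

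PH and sham surgery were compared at matched times to ask which changes need the loss of liver tissue. None of the 10 genes was called at 1 h (0.65% of all genes in either direction), 4 h (8.64%), 10 h (7.02%), 20 h (7.11%) or 48 h (27.2%), by limma at an adjusted p below 0.05. The X48 and S48 livers shared a period, whereas the S10 and S20 livers came from the second period and the X10 and X20 livers from both the first and second. At 4 h the S4 livers came from both, and whether the X4 livers did is not known. Over all genes 1430, 4031, 3833, 4118 and 7841 had an unadjusted p below 0.05 at these times. The median log2 fold change over the 10 genes was −0.20, −0.38, 0.12, −0.28 and −0.29, against 0.01, −0.04, −0.00, 0.07 and 0.27 over all genes. The largest difference was that of Marco at 20 h, with X20 livers from 2.07 to 4.87 log2 RPKM and S20 livers at 0.78, 1.90 and 1.98, which do not overlap. It was 1.45 ± 0.57 with an adjusted p of 0.081, and it was called with PH replicates 4 to 6 alone (2.03) and not with replicates 1 to 3 alone (0.86). With a block by replicate number (1.67) or by triplicate (1.69) in the fit it was called too. At 10 h Marco differed by 0.70 ± 0.57 and at 48 h by 0.69 ± 0.59. At 48 h the SE were between 0.37 and 0.59 over the 10 genes, and a p that misses the threshold does not show that PH and sham livers were alike.

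**Figure D5:**
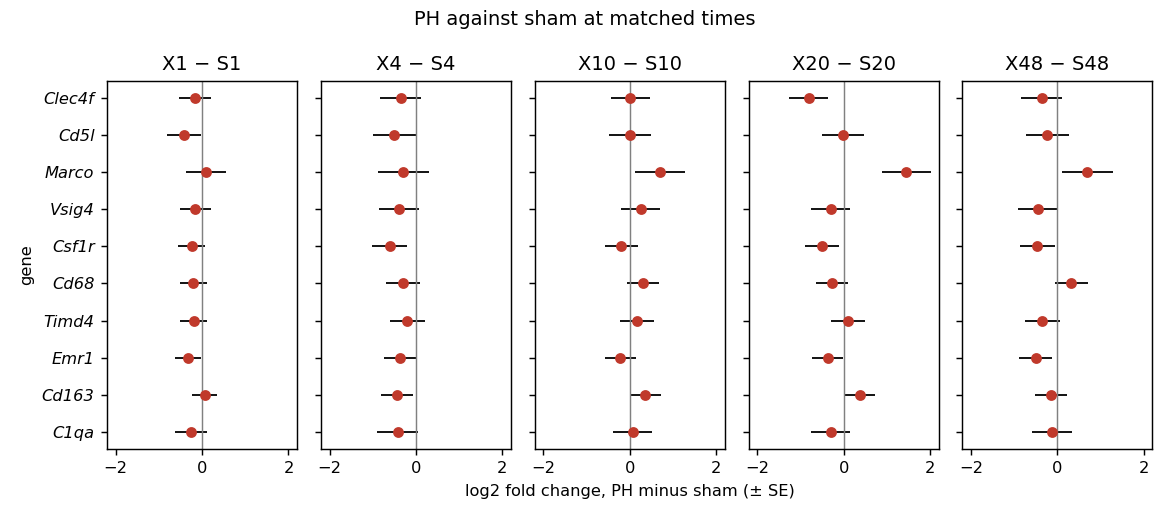
Log2 fold change of RPKM + 0.25, PH minus sham (x axes, points with SE bars), of the 10 genes (y axis) at each of the 5 times with sham livers, from 1 to 48 h. No gene was called, and Marco at 20 h, at 1.45, is farthest from 0.

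The change of the PH to sham difference between 48 h and the earlier times was tested as an interaction. None of the 10 genes was called for 48 h against 1 h (23.7% of all genes in either direction), 4 h (33.6%), 10 h (23.1%) or 20 h (13.2%), where 6372, 7096, 5930 and 4404 of all genes had an unadjusted p below 0.05. The values for Marco were 0.59 ± 0.75, 0.99 ± 0.83, −0.01 ± 0.82 and −0.76 ± 0.82.

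Ordered by their group means, neighbouring groups almost always overlapped. For Marco the order from the highest was X72 (3.87), X1W (3.65), X28 (3.57), X20 (3.08), X44 (3.02), X48 (2.86), X36 (2.74), S48 (2.13), X10 (1.74), S20 (1.55), S10 (0.99), S4 (0.77), X4W (0.50), X4 (0.48), C4 (0.34), X1 (−0.04), C4W (−0.16), S1 (−0.17) and C0 (−0.27 log2 RPKM), and all 18 pairs of neighbours overlapped in their livers. For Clec4f 16 of 18 pairs did, for Vsig4 17, and for the other genes all 18. Clec4f ran from X20 (1.83) to X1W (3.66), Cd5l from X4 (2.06) to X1W (4.41) and C1qa from S10 (2.36) to C4 (3.91). Cd68 ran from S10 (0.10) to X48 (1.4), and Cd163 from C4W (−0.97) to X28 (0.41).

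As a description over the 19 group means, which share the sequencing of whole liver and its depth, the Pearson correlation was 0.94 between Vsig4 and Csf1r, 0.92 between Csf1r and Emr1, 0.92 between Vsig4 and C1qa, and 0.90 between Clec4f and Csf1r. Marco correlated with Clec4f at −0.06, with C1qa at 0.19, with Cd5l at 0.66 and with Cd163 at 0.73. Among 10509 protein-coding genes, the closest to C1qa were the other chains of C1q, C1qc (0.98) and C1qb (0.97), then Tyrobp, Ly86 and Ctss. Those closest to Clec4f were H2-Q10 (0.94), Folr2, C1qc, Fcgr2b and Ctss. Those closest to Vsig4 were C1qc (0.95), Aif1, Csf1r, C1qb and Sdc3. For Marco they included Armcx4 (0.94), Tmprss2, Aig1 and Ifi27l2b, of which none is on the macrophage lists. Cd163 had no close match, with Plxnc1 at 0.80 as the nearest.

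The further 29 Kupffer cell and tissue macrophage genes were compared at 4 h as well, where surgery and period cannot be told apart against C4. Against C4, 18 of 29 were lower (33.9% of all genes) and 3 higher (11.7% of all genes) at 4 h after PH, with a median of −0.85. The largest fall was that of the iron exporter gene Slc40a1 (−2.89), followed by Aif1 (−1.64). The 3 higher genes were Cd14, the co-receptor for bacterial lipopolysaccharide (3.08), Hmox1, heme oxygenase (1.75), and Id3 (0.92), and hepatocytes and other liver cells also express these. Against S4 after PH, 1 of 29 was called, Slc40a1 lower by 1.04 (−1.04), against 5.48% of all genes lower. At 48 h none was called in either direction between PH and sham, against 27.2% of all genes.

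Genes of monocytes and of macrophages derived from them differed between PH and sham at 48 h. Of 13 such genes, 8 were higher in X48 than in S48, against 24.5% of all genes, with a median of 0.62 and 0.27 over all genes. They were S100a4, which codes for a calcium-binding protein of motile cells (2.02 ± 0.45, limma adjusted p = 0.00017), Chi3l3 (1.49 ± 0.51), Cd9 (1.01 ± 0.21), Ly6c1 (0.85), F13a1 (0.83), Plac8 (0.69), Ccr2, the receptor that brings monocytes out of the marrow (0.62), and Gpnmb (0.55). The monocyte gene Ly6c2 (−0.02) was not called. In the test of the difference between times, 4 of the 13 had a higher PH to sham difference at 48 h than at 1 h (21.2% of all genes), than at 4 h (30.3%) and than at 10 h (21.7%), and 1 than at 20 h (12.5%), shares near those of all genes. S100a4, Cd9, Ly6c1 and Gpnmb are also expressed by other liver cells, and the part of monocytes in these values was not tested.

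Other cell type lists changed as well, and their comparisons with C0 include replicate 8. In that liver the median difference from the mean of the other C0 livers was 2.05 for the dendritic cell list. It was 1.91 for the neutrophil list and 0.86 for the T and NK cell list. At 4 h after PH against C4, 33.9% of all genes were lower and 11.7% higher. Lower were 9 of 10 stellate cell genes, 6 of 10 sinusoidal endothelial genes and 6 of 6 B cell genes. Of 10 hepatocyte genes 4 were higher and 2 lower. Of the 5 detected genes on the dendritic cell list, 4 were lower than C0 at each of the 7 times analysed from 10 to 72 h after PH, against 6.59% to 15.2% of all genes. The median was between −1.59 and −2.05. The fall was led by the MHC class II genes H2-Aa and H2-Ab1 (−2.13 and −2.14 at 28 h) and by Cd74 (−2.05 at 28 h). The cell types in which these genes fell were not tested. In S48 3 of the 5 were lower, against 5.05% of all genes (median −1.08). Of 5 T and NK cell genes, 4 were lower at each of the times from 10 to 72 h but 72 h, when all 5 were. The shares of all genes were the same 6.59% to 15.2%. Of 10 neutrophil genes, 5 were higher than C0 in S4 (11.7% of all genes), with S100a8 at 3.10 and S100a9 at 2.81. In X72, 4 of the 10 were higher (26.6% of all genes). Of 5 peritoneal macrophage genes, Prg4, which mesothelial cells also express, was higher in S48 (3.05) and X48 (3.08). Of 6 cholangiocyte genes 1 was lower in X48, and of 3 erythroid genes 1 was, against 7.66% of all genes lower than C0. The part of these cell types in the macrophage values was not tested.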

How the data were processed

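Per the labels and the study's methods, the authors trimmed the reads with Cutadapt and prinseq-lite, aligned them to mm9 with TopHat2 2.0.13 and Bowtie2, used SAMtools 0.1.19, counted reads on the transcribed strand of Ensembl genes with featureCounts, sharing multi-mapping reads among their positions, and deposited log2 RPKM values. Of 84 value columns, 80 matched a labelled sample and 4 matched none and were not used. Of the 87 labelled samples, 7 are not analysed here. Depth was estimated from the steps between low values.

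Genes above −1.5 log2 RPKM in at least 1 library were tested with limma 3.58.1 (R 4.3.3) on log2(RPKM + 0.25), with all 19 groups in 1 model and a mean-variance trend. The script was tested on simulated data. The period of each replicate number in groups split over periods is not given in the sources used here, so period was not a term in the fit. The labels describe individual livers as the replicates. Named genes were the 10 members, the genes of the other lists that were called between PH and sham at 48 h or had the 4 largest changes of their list, and the 5 genes closest to each member in group means. Id3 and Ly6c2 were named after their values were seen, and some genes that the rule covers are not reported here. The members and the 13 other lists (132 genes) were chosen with earlier results of these data known. Coordinates are from GENCODE on mm9. Tables and figures used Python 3.11.15, pandas 2.3.3, numpy 2.4.6, scipy 1.17.1 and matplotlib 3.10.9.

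Alternatives covered the pseudocount (1 and 0.05), the filter, scaling to the same median, the trend, the groups in the fit, and blocks by replicate number or triplicate. Each replicate number was also left out, in all groups at once. Chosen after seeing the data were subsets of the C0 livers and of the numbered triplicates.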

Additional observations from a re-analysis of the deposited data

Results flagged for a closer look

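Within groups of 4 to 10 livers, 80 tests asked whether the highest or lowest liver was farther from the nearest other than Dixon's critical value, and 10 were past it. Chance gives about 1 in 20. Of the 10, 7 were in C0 replicate 8, which was the highest of 9 livers for Clec4f (5.66 log2 RPKM), Cd5l (5.50), Marco (2.43), Vsig4 (4.54), Csf1r (3.33), Timd4 (2.23) and C1qa (5.83). The neutrophil, monocyte, B cell and dendritic cell genes were high in the same liver, and their part in these values was not tested.

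The other 3 were single genes. Marco was lowest in S1 replicate 5 (−1.27 log2 RPKM), Vsig4 was lowest in S1 replicate 6 (0.66), and Timd4 was highest in X48 replicate 5 (0.12).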

How the results depend on the processing

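Of 51 calls of the 10 genes, 10 were kept under every alternative run for them: Marco at 20, 28, 36, 44, 48 and 72 h and 1 week, Csf1r in X4 against C4, and C1qa and Cd68 between C0 livers 7 to 9 and 4 to 6. Of 831 alternative values, 615 kept the direction and the call, 215 kept the direction and lost the call, and 1 turned, C1qa in X10 against C0, which was 0.03 for replicates 1 to 3 against C0 1 to 3.

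The shares of all genes called under each setting are not given in this section. Its counts therefore do not tell a shift of these 10 genes from a shift of all genes. Calls of PH against C0 (15 higher and 10 lower of 110) were 28 and 4 without C0 replicate 8, 30 and 2 with C0 livers 1 to 6 alone, 7 and 50 with C0 livers 7 to 9 alone, and 8 and 1 with only the compared groups in the fit. Within numbers they were 24 and 1 (of 100, against 15 and 6) for replicates 1 to 3 and 12 and 1 (of 60, against 6 and 10) for replicates 4 to 6. Leaving out 1 replicate number of all groups or 1 C0 liver gave 9 to 28 higher and 4 to 11 lower calls. Sham against C0 (4 higher and 1 lower of 50) gave 8 and 0 without C0 replicate 8 or with C0 1 to 6 alone, 0 and 25 with C0 7 to 9 alone, 2 and 0 with no filter, 0 and 0 with only the compared groups, 6 lower under median scaling and 2 lower with the filter on group means, and leaving out replicates gave 0 to 8 higher and 0 to 7 lower. The comparisons with C4, C0 and C4W (0 higher and 10 lower of 40) gave 1 higher without C0 replicate 8 and 5 lower under median scaling, and 0 to 1 higher and 0 to 8 lower with replicates left out. The 11 higher calls between C0 triplicates were 2 without replicate 8. The cause was not tested. PH against sham gave 0 calls but for Marco at 20 h. That was called with PH replicates 4 to 6 alone (2.03) and with both blocks described below.

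Livers of the same number did not deviate together (r from −0.19 to 0.30, with no comparison of 3 or more numbers in which every r was over 0.1), so the numbers were not taken as pairs. With the replicate block, PH against C0 gave 28 higher and 2 lower calls, PH against sham 1 (Marco at 20 h, 1.67), sham against C0 0 lower and the unoperated and late comparisons 2 higher. Blocked by triplicate, these were 25 and 1, 1, 0 and 1, with 3 lower in the last. Both blocks give C0 livers 7 to 9 no weight in contrasts with C0, since no other group holds those numbers. Depth limits Timd4 most.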
